A study of Mus musculus with 37 samples.

Results

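The genes described here are 7 members of the MHC class I antigen presentation pathway, H2-D1, H2-K1, H2-T23, B2m, Tap1, Tap2 and Tapbp, of 18193 genes with a probe set of their own in the table. Every probe set annotated to a member was taken, which gave 27 of 45037 probe sets. Of these 27, 22 carry 1 gene symbol and 5 carry several. The members were chosen by measured values of these data, namely the H2-D1 signal in Dble::R6/2 against R6/2 cortex and its scatter between arrays, so H2-D1 and H2-K1 are given in that comparison and in the interaction as values with no test.

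The cortex of each of 37 mice, all aged 9 wk, was profiled on its own Affymetrix array. The groups were 10 Dble::R6/2 mice (R6/2 mice that also carry 1 null allele of Hdac4, titled R6/2::HDAC4het in the labels), 9 R6/2 mice, 9 Hdac4HET mice (1 null allele of Hdac4 without the transgene, titled HDAC4het) and 9 WT mice, with 5 males in each group by the labels. R6/2 mice carry a transgene for a mutant N-terminal exon 1 fragment of human huntingtin, and the null allele lowers Hdac4 without removing it, so neither the full-length mutant protein nor the loss of Hdac4 was modelled. R6/2 males were crossed to Hdac4HET females, and all mice came from a colony of mixed CBA and C57BL/6 background into which the null allele, made in 129S cells, had been backcrossed.

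Values are log2 expression as deposited, with array medians between 6.16 and 6.21. Hdac4 averaged 7.79 ± 0.09 in Dble::R6/2 (SD, n = 10), 8.43 ± 0.09 in R6/2, 7.92 ± 0.07 in Hdac4HET and 8.48 ± 0.10 in WT cortex (SD, n = 9 each), and no array with a null allele overlapped an array without one. On 8 arrays, 7 of Hdac4HET and 1 of Dble::R6/2, the mean of 10 olfactory bulb markers lay above every WT array, and on 6 arrays the sex-linked genes went against the labelled sex. Neuronal markers averaged 12.2 to 12.6 on every array, and the lymphocyte markers 4.69 to 5.04.

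MHC class I molecules show peptides from inside the cell at its surface, where CD8 T cells and natural killer cells read them. A heavy chain, here H2-D1, H2-K1 or the non-classical H2-T23, pairs with the light chain B2m. The peptides are cut by the proteasome, pumped into the endoplasmic reticulum by the transporter made of Tap1 and Tap2, and loaded with the help of tapasin, the product of Tapbp. Interferons raise the genes of this pathway, and in the brain class I molecules are found on microglia and endothelium and on some neurons. H2-D1 and H2-K1 are among the most polymorphic genes of the mouse, and CBA and C57BL/6 mice carry different H2 haplotypes, named k and b. The haplotype of each mouse is not in the labels used here.

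All members except B2m, on chromosome 2, lie on chromosome 17. The upstream sequences of H2-D1, H2-K1 and B2m are shown because the levels of these heavy chains and of their light chain carry most of what follows. Each is a 300-base stretch around the start of the gene from RefSeq (GRCm38.p6, the C57BL/6J reference), which held an entry for 6 of the 7 members. Capitals mark matches, on either strand, to the enhancer A core GGGATTCCC, the interferon-stimulated response element in the forms GAANNGAAA and GAAA repeated after 2 bases, the X2 box core TGACG and the CCAAT box.

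H2-D1, chr17:35262844-35263143, plus strand: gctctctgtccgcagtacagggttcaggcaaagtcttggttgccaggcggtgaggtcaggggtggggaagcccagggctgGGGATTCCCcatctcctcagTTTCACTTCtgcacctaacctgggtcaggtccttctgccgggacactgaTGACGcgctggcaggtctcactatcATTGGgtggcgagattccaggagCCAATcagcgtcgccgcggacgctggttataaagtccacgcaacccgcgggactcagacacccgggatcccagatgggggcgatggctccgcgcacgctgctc
H2-K1, chr17:34000298-34000597, minus strand: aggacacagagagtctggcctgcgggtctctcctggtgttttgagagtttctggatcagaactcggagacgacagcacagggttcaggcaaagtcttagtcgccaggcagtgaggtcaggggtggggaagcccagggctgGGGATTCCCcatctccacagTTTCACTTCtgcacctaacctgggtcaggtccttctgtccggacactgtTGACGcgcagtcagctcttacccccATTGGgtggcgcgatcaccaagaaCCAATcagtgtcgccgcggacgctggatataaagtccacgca
B2m, chr2:122147437-122147736, plus strand: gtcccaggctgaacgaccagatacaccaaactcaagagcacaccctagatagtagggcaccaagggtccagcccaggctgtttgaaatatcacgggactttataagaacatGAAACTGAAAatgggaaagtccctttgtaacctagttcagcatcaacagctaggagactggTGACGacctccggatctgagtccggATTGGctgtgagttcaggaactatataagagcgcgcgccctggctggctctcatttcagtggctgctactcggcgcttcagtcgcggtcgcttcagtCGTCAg

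The H2-D1 and H2-K1 sequences each held GGGATTCCC, GAANNGAAA and TGACG once and CCAAT in 2 places, in the same order. The B2m sequence held the repeated GAAA and CCAAT once and TGACG in 2 places. Of 32851 promoters of this length, 0.35% held GGGATTCCC, 7.52% held GAANNGAAA, 3.44% held the repeated GAAA, 20.81% held TGACG and 37.41% held CCAAT, so that only the first of these strings was rare. A match describes the letters of the reference and not binding in these mice.

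H2-D1 is a classical class I heavy chain and had 11 probe sets, 9 of them annotated to it alone. The probe set 1425545_x_at reached a lowest, median and highest log2 level of 9.64, 10.28 and 10.85 in Dble::R6/2, 6.26, 7.06 and 10.50 in R6/2, 7.24, 9.92 and 10.25 in Hdac4HET, and 6.36, 9.93 and 10.19 in WT cortex. Its levels fell into a high and a low set with nothing between 7.24 and 8.73, and the low set held 9 arrays, 0 of Dble::R6/2, 5 of R6/2, 1 of Hdac4HET and 3 of WT. In R6/2, no array lay near the mean of 8.21 ± 1.84 (SD, n = 9).

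The probe set 1450170_x_at, also annotated to H2-D1 alone, ran the other way. Its lowest, median and highest log2 level were 3.65, 4.12 and 7.53 in Dble::R6/2, 3.79, 8.16 and 8.67 in R6/2, 3.72, 5.52 and 7.81 in Hdac4HET, and 3.57, 4.02 and 8.23 in WT cortex. No array lay between 4.19 and 5.52. Below that gap were 20 arrays, 7 of Dble::R6/2, 3 of R6/2, 4 of Hdac4HET and 6 of WT. The pooled SD within genotypes was 1.89, which ranked 13 of 45037 probe sets, and that of 1425545_x_at was 1.32, with rank 30.

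Set against each other, these probe sets of 1 gene lay on opposite sides of their gaps on 29 of 37 arrays. On the other 8, replicates 5, 8 and 9 of Dble::R6/2, replicate 5 of R6/2 and replicates 5, 7, 8 and 9 of Hdac4HET, both were on the high side. No WT mouse was among these, and no mouse was on the low side of both. With genotype means removed, the Pearson correlation between them across 37 arrays was −0.88.

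**Figure D1:**
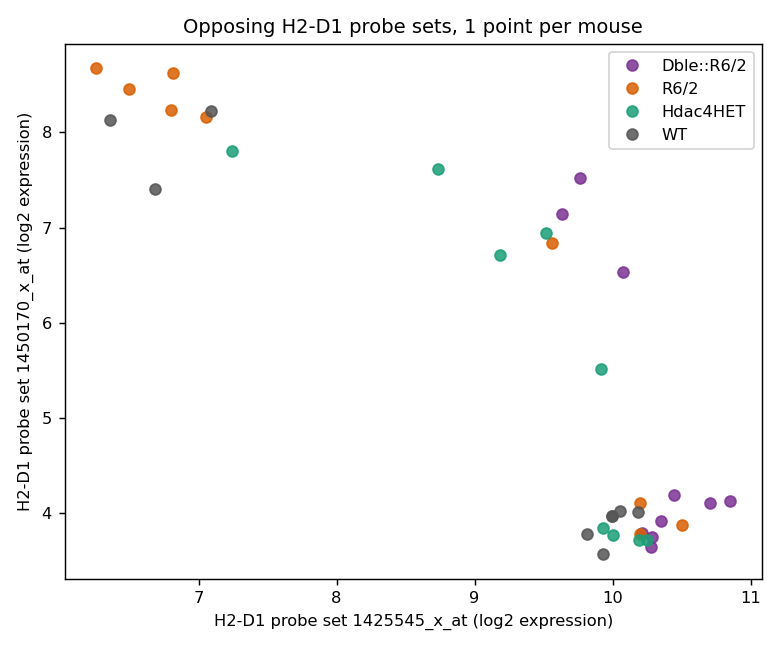
Log2 expression of the H2-D1 probe set 1425545_x_at (horizontal axis) against the H2-D1 probe set 1450170_x_at (vertical axis), 1 point per mouse, coloured by genotype. The points form a group of 9 mice at the upper left, a group of 20 at the lower right and 8 mice at the upper right, and no mouse lies at the lower left.

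Of the other H2-D1 probe sets, 1451683_x_at (pooled SD 1.10, rank 53), 1451784_x_at (0.63, rank 215) and 1426324_at (0.48, rank 367) moved against 1450170_x_at, with r of −0.91, −0.87 and −0.83. The probe sets 1451683_x_at and 1451784_x_at put the same 10 arrays on their low side, 0 of Dble::R6/2, 5 of R6/2, 2 of Hdac4HET and 3 of WT. These were the 9 low arrays of 1425545_x_at and replicate 9 of Hdac4HET. The probe sets 1427651_x_at, 1452544_x_at and 1425614_x_at moved with 1450170_x_at, with r of 0.73, 0.73 and 0.67 over smaller pooled SDs of 0.26, 0.24 and 0.20. The last 1-symbol probe set, 1451934_at, had means of 3.9965, 3.89, 3.93 and 3.93 in Dble::R6/2, R6/2, Hdac4HET and WT cortex and an r of 0.20. The probe set 1422348_at, shared with Gm38417 and H2-Q2, had a pooled SD of 0.14 and an r of −0.28.

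H2-K1 is the other classical heavy chain measured. Its probe set 1425336_x_at had a lowest, median and highest level of 9.16, 9.81 and 10.54 in Dble::R6/2, 7.05, 8.86 and 10.16 in R6/2, 6.89, 9.45 and 9.89 in Hdac4HET, and 6.96, 9.62 and 9.76 in WT cortex. Between 7.30 and 8.42 there was no array, and 6 arrays lay below, 0 of Dble::R6/2, 3 of R6/2, 1 of Hdac4HET and 2 of WT. It sat on the same side as H2-D1 1425545_x_at on 34 of 37 arrays, the exceptions being replicates 1 and 3 of R6/2 and replicate 1 of WT.

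A second H2-K1 probe set, 1451931_x_at, had a lowest, median and highest level of 9.14, 9.75 and 10.28 in Dble::R6/2, 6.80, 7.53 and 9.91 in R6/2, 7.06, 9.43 and 9.78 in Hdac4HET, and 7.10, 9.41 and 9.59 in WT cortex. It lay on the same side as H2-D1 1451683_x_at on all 37 arrays, and its r with 1450170_x_at was −0.90. The probe set 1427746_x_at showed a narrower spread, with means of 7.90 ± 0.28 in Dble::R6/2 (SD, n = 10), 7.64 ± 0.26 in R6/2, 7.54 ± 0.18 in Hdac4HET and 7.57 ± 0.22 in WT (SD, n = 9 each). The probe set 1424948_x_at, shared by H2-K1 and H2-D1, averaged 7.70 ± 0.27, 7.44 ± 0.29, 7.36 ± 0.24 and 7.32 ± 0.19 in the same order of genotypes. The dimmer 1450534_x_at had group means of 4.78 to 4.85, and 1451593_at, shared with H2-Q5, of 5.51 to 5.73. Overlap of these paralogous sequences means that a probe set may read more than the gene it is annotated to.

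**Figure D2:**
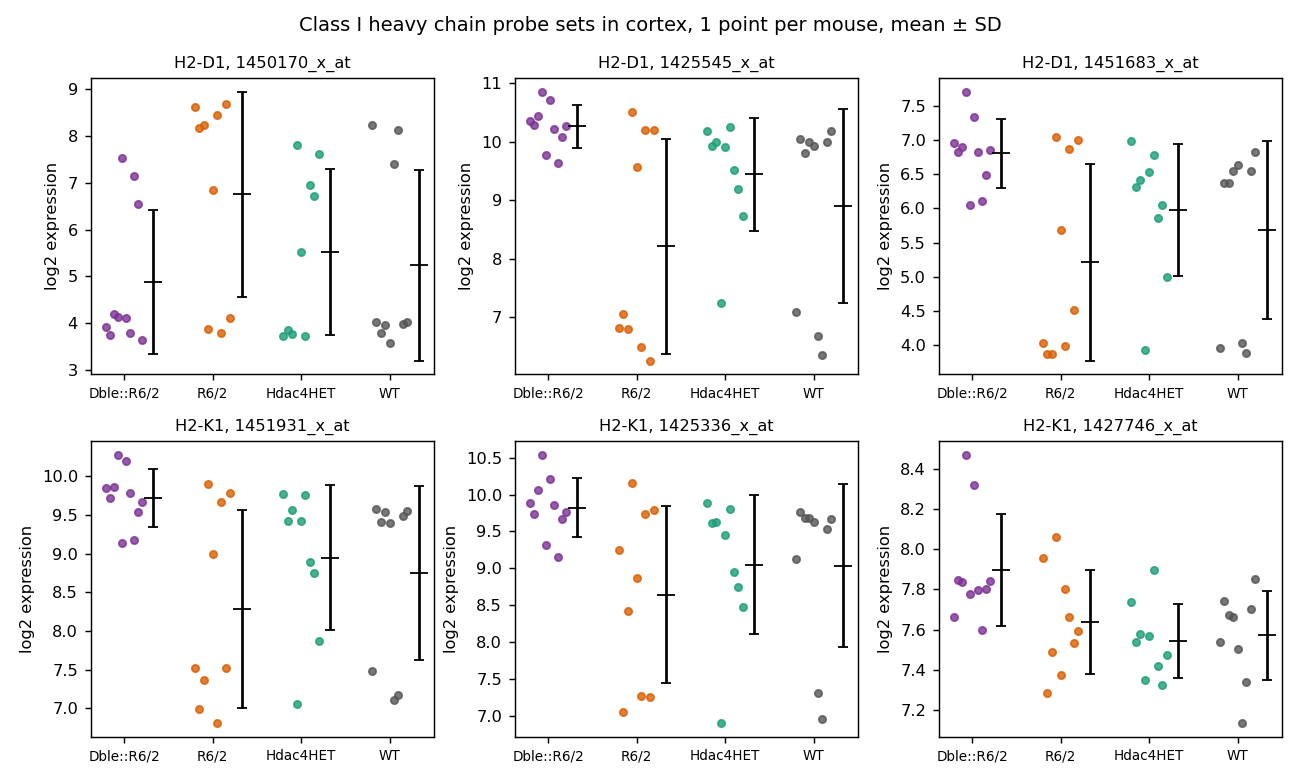
Log2 expression of 3 H2-D1 and 3 H2-K1 probe sets (vertical axes, 1 panel each) in the 4 genotypes, 1 point per mouse, with mean ± SD beside the points (n = 10 Dble::R6/2, 9 in each other genotype). The 10 Dble::R6/2 mice all lie in the high set of 1425545_x_at, against 4 of 9 R6/2 mice. In 1450170_x_at, 7 of 10 Dble::R6/2 and 3 of 9 R6/2 mice lie below the gap.

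In Dble::R6/2 against R6/2 cortex, the comparison with which the members were chosen, the fitted log2 differences were 2.05 (SE 0.56) for 1425545_x_at, 1.59 (SE 0.47) for 1451683_x_at and 0.91 (SE 0.27) for 1451784_x_at, and −1.87 (SE 0.81) for 1450170_x_at, all annotated to H2-D1. For H2-K1 they were 1.44 (SE 0.42) for 1451931_x_at and 1.18 (SE 0.41) for 1425336_x_at. The direction of H2-D1 thus depended on the probe set read, and the Dble::R6/2 and R6/2 arrays overlapped in each of these probe sets. In the comparisons that did not choose the members, none of the 9 H2-D1 probe sets with 1 symbol passed limma's test in the fit of all 4 genotypes. In Dble::R6/2 against Hdac4HET, 1425545_x_at, 1451683_x_at and 1451784_x_at were called with only these genotypes in the fit, and 1451784_x_at also by the methods' t test, with array quality weights and without Hdac4HET replicate 6. For 1450170_x_at the log2 difference was 1.52 (SE 0.83) in R6/2 against WT (limma, adjusted p = 0.1474), and for 1451784_x_at it was 0.61 (SE 0.27) in Dble::R6/2 against Hdac4HET (adjusted p = 0.07172). These comparisons share the R6/2 or Dble::R6/2 arrays with the one that chose the members.

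H2-T23 encodes Qa-1, a non-classical heavy chain that shows a narrow set of peptides to natural killer cell receptors. Both of its probe sets are also annotated to H2-T-ps, so their signal cannot be given to H2-T23 alone. The dimmer, 1419658_at, had a lowest, median and highest level of 3.93, 4.10 and 4.33 in Dble::R6/2, 3.84, 4.20 and 4.35 in R6/2, 4.36, 4.60 and 4.79 in Hdac4HET, and 3.997, 4.45 and 4.72 in WT cortex. The Dble::R6/2 and Hdac4HET arrays did not overlap, and the share of all probe sets without overlap was not counted. The level fell by 0.51 on the log2 scale in Dble::R6/2 against Hdac4HET (SE 0.07, limma, adjusted p = 7.974e-07) and by 0.33 in R6/2 against WT (SE 0.08, adjusted p = 0.0006504). Most Hdac4HET arrays had raised olfactory bulb markers. With the raised arrays left out, only replicates 2 and 8 of Hdac4HET remained. The difference of 1419658_at in Dble::R6/2 against Hdac4HET was then −0.58 (limma, adjusted p = 0.002334), which rests on those mice for Hdac4HET. The mean of 1419658_at lay at the 22.5th percentile of all probe sets, and its correlation with H2-D1 1450170_x_at was 0.04.

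The brighter H2-T-ps and H2-T23 probe set, 1449556_at, had a lowest, median and highest level of 7.90, 8.09 and 8.51 in Dble::R6/2, 7.73, 7.83 and 8.29 in R6/2, 7.89, 8.34 and 8.90 in Hdac4HET, and 7.70, 8.56 and 8.78 in WT cortex. It fell by 0.42 in R6/2 against WT (SE 0.13, limma, adjusted p = 0.008428). The groups overlapped, since WT replicates 1, 6 and 7 were at 7.89, 7.70 and 7.83 and the other 6 WT arrays at 8.51 or above. Those 3 WT mice were also the low ones of H2-D1 1425545_x_at, and across all arrays 1449556_at had an r of −0.73 with H2-D1 1450170_x_at. Without WT replicate 8 the fall was 0.37 (adjusted p = 0.02228), which is under 1.3-fold.

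B2m, the light chain shared by all class I molecules, had 2 probe sets. In 1449289_a_at the lowest, median and highest level were 11.11, 11.28 and 11.84 in Dble::R6/2, 11.22, 11.58 and 11.85 in R6/2, 11.07, 11.24 and 11.40 in Hdac4HET, and 11.07, 11.12 and 11.58 in WT cortex. R6/2 mice were the highest by median, and the ranges overlapped. B2m rose in R6/2 against WT by 0.30 (SE 0.08, limma, adjusted p = 0.0038) in this probe set and by 0.23 (SE 0.09, adjusted p = 0.03473) in 1452428_a_at, each under 1.3-fold. In Dble::R6/2 the difference from Hdac4HET was 0.13 (SE 0.08, adjusted p = 0.2283) and 0.08 (SE 0.09, adjusted p = 0.5511). By means of 1449289_a_at the order was R6/2 (11.52), Dble::R6/2 (11.34), WT (11.22) and Hdac4HET (11.21), in which neither Dble::R6/2 against R6/2 (−0.19, SE 0.08, adjusted p = 0.2249) nor Hdac4HET against WT (−0.02, SE 0.08, adjusted p = 0.9525) passed the test, and Dble::R6/2 was not compared with WT. The interaction, which asks whether the R6/2 effect differed with the null allele, was −0.17 (SE 0.12, adjusted p = 0.4274).

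Replicate 4 of Dble::R6/2 had the highest B2m of its group, at 11.84 and 11.56 in the 2 probe sets. It was the highest Dble::R6/2 array in 13 of the 27 member probe sets. The arrays most often highest in the other groups were R6/2 replicate 4 (12 of 27), Hdac4HET replicate 1 (8 of 27) and WT replicate 1 (10 of 27).

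Tap2, a subunit of the peptide transporter, had 1 probe set. Its lowest, median and highest level were 6.74, 6.82 and 7.06 in Dble::R6/2, 6.56, 6.94 and 7.15 in R6/2, 6.34, 6.61 and 6.80 in Hdac4HET, and 6.41, 6.59 and 6.82 in WT cortex. Tap2 rose by 0.31 (SE 0.07, limma, adjusted p = 0.0002188) in R6/2 against WT and by 0.24 (SE 0.06, adjusted p = 0.002741) in Dble::R6/2 against Hdac4HET, and all 4 ranges overlapped their neighbours. The difference of Dble::R6/2 from R6/2 was −0.07 (SE 0.06, adjusted p = 0.6262).

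Tap1, the other subunit, had 4 probe sets, and none passed the test in any comparison. In R6/2 against WT their differences lay between −0.04 and 0.02, with limma's adjusted p from 0.7117 to 0.9389. The brightest, 1416016_at, averaged 6.12 ± 0.18 in Dble::R6/2 (SD, n = 10), 6.03 ± 0.15 in R6/2, 6.09 ± 0.15 in Hdac4HET and 6.05 ± 0.12 in WT cortex (SD, n = 9 each). The means of 1420274_at and 1449803_x_at stood at the 1.2 and 4.1 percentile of all probe sets and that of 1448177_at at 33.1.

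Tapbp encodes tapasin, which holds the transporter and the heavy chain together during loading. In 1421812_at the lowest, median and highest level were 8.39, 8.57 and 8.65 in Dble::R6/2, 8.48, 8.63 and 8.79 in R6/2, 8.30, 8.44 and 8.51 in Hdac4HET, and 8.29, 8.35 and 8.56 in WT cortex. It rose by 0.25 (SE 0.04, limma, adjusted p = 1.204e-05) in R6/2 against WT and by 0.13 (SE 0.04, adjusted p = 0.01441) in Dble::R6/2 against Hdac4HET. The dimmer 1450378_at differed by 0.02 (SE 0.06, adjusted p = 0.8015) in R6/2 against WT, and rose by 0.19 (SE 0.06, adjusted p = 0.01157) in Dble::R6/2 against Hdac4HET. The probe sets of Tapbp thus did not match in R6/2 against WT.

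**Figure D3:**
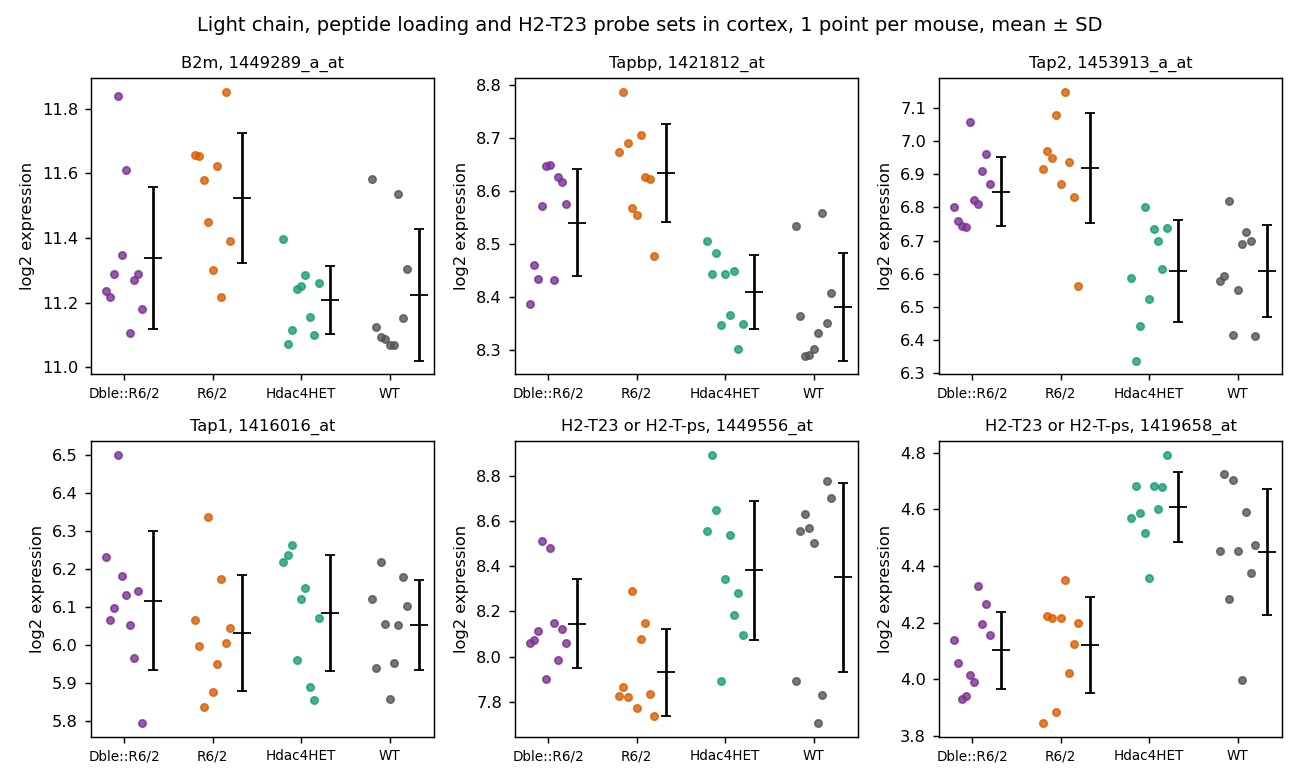
Log2 expression of B2m, Tapbp, Tap2, Tap1 and the 2 probe sets shared by H2-T23 and H2-T-ps (vertical axes, 1 panel each) in the 4 genotypes, 1 point per mouse, with mean ± SD beside the points (n = 10 Dble::R6/2, 9 in each other genotype). The Dble::R6/2 and Hdac4HET mice do not overlap in 1419658_at, and 3 WT mice lie apart from the other 6 in 1449556_at.

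Counted over probe sets, with a call at an adjusted p under 0.05 and a change over 1.3-fold, 1 of 27 was called in R6/2 against WT (1449556_at, lower), where 6.08% of all probe sets were. In Dble::R6/2 against Hdac4HET 1 of 27 was called (1419658_at, lower), against 7.1% of all. With only these genotypes in the fit 6 of 27 (22.2%) were called, against 3221 of all (7.15%), the other 5 being H2-D1 and H2-K1 probe sets that were higher in Dble::R6/2. Those 5 share the Dble::R6/2 arrays with the comparison that chose the members. Any pair of them lay on the same side of their gaps on 33 to 37 of 37 arrays. Nothing is read from that share. In Hdac4HET against WT 0 of 27 were called by limma, against 0.291% of all. There 2 of 27 had an unadjusted p under 0.05, a share that was not counted over all probe sets. The methods' t test called 0 of 27 there, against 0.0222% of all. Without the size limit, 7 of 27 passed in R6/2 against WT, 4 higher (both of B2m, Tap2 and Tapbp 1421812_at) and 3 lower (both of H2-T-ps and H2-T23, and H2-Q5 and H2-K1 1451593_at), against 38.8% of all. In Dble::R6/2 against Hdac4HET 6 of 27 passed, 5 higher (Tap2, both of Tapbp, H2-K1 1427746_x_at and the shared 1424948_x_at) and 1 lower, against 36.8% of all, and in Hdac4HET against WT 0 of 27, against 1.43%.

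In Dble::R6/2 against R6/2, 11 member probe sets were tested, those of H2-T23, B2m, Tap1, Tap2 and Tapbp. Of these, limma called 0 with the size limit, against 0.269% of all, and 0 without it, against 1.99%. An unadjusted p under 0.05 was found for 2 of the 11, and that share was not counted over all probe sets, so nothing is read from it. The methods' t test called 0 of the 11, against 0.0333% of all. In the interaction 0 of 11 were called with the size limit, against 0.251% of all, and 0 without it, against 0.968%. An unadjusted p under 0.05 was found there for 0 of the 11. The median log2 difference of the 27 member probe sets was −0.01 in R6/2 against WT, where that of all probe sets was −0.02. In Dble::R6/2 against Hdac4HET it was 0.08, where that of all was 0.02. These medians include the H2-D1 and H2-K1 probe sets, on arrays shared with the comparison that chose the members, so nothing is read from them.

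**Figure D4:**
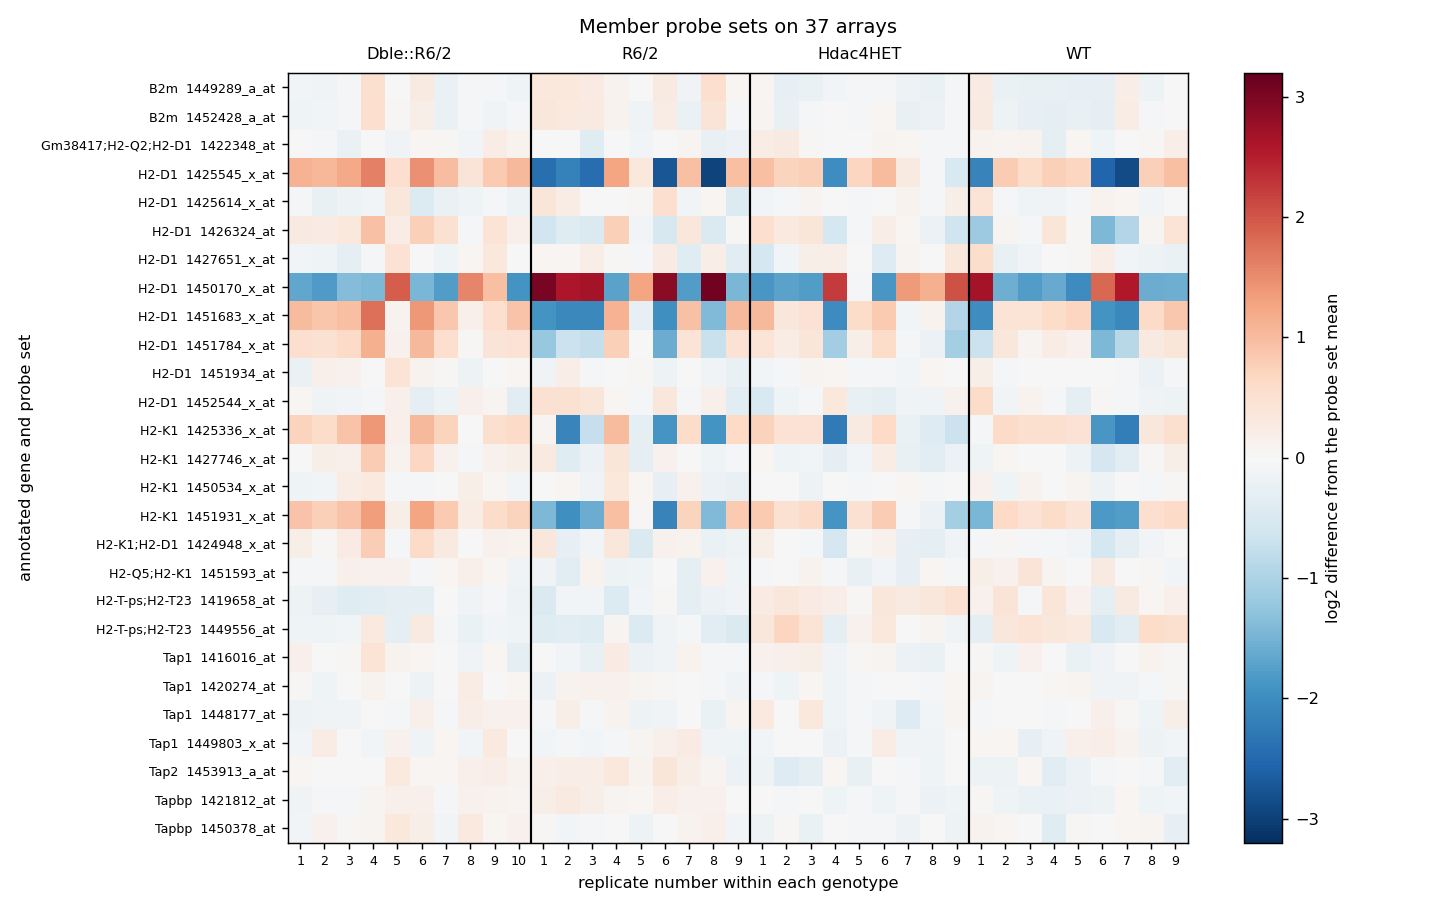
Each of the 27 member probe sets (rows) on the 37 arrays (columns, by genotype and replicate number), coloured by its log2 difference from the mean of the probe set over all arrays. The strong colours sit in the H2-D1 rows 1425545_x_at, 1450170_x_at, 1451683_x_at and 1451784_x_at and the H2-K1 rows 1425336_x_at and 1451931_x_at, and change from mouse to mouse within a genotype.

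The other genes of the pathway were read from lists, each gene by its brightest probe set with 1 symbol, and calls in other probe sets of a gene are given where there were any. Beside the list counts below, 6.08% of all probe sets were called in R6/2 against WT and 7.1% in Dble::R6/2 against Hdac4HET. The share was 0.269% in Dble::R6/2 against R6/2 and 0.291% in Hdac4HET against WT. A count of 0 or 1 in so short a list is not read as a result about the list. Of the immunoproteasome genes, which give the proteasome its interferon-induced form, 4 were measured. Psme1, a subunit of the activator cap, had levels of 9.84 to 10.17 in Dble::R6/2, 9.67 to 10.10 in R6/2, 9.29 to 9.57 in Hdac4HET and 9.26 to 9.62 in WT cortex, so that neither R6/2 group overlapped its counterpart without the transgene. How many of all probe sets also lacked overlap was not counted. It rose by 0.44 (SE 0.05, limma, adjusted p = 1.398e-08) in R6/2 against WT and by 0.56 (SE 0.05, adjusted p = 3.396e-11) in Dble::R6/2 against Hdac4HET. Psmb8, a catalytic subunit, rose by 0.33 (SE 0.08, adjusted p = 0.001776) and 0.33 (SE 0.08, adjusted p = 0.00112) in these comparisons. Psmb9 (0.17, adjusted p = 0.08895) and Psmb10 (−0.02, adjusted p = 0.767) did not pass in R6/2 against WT. The list median was 0.25 in R6/2 against WT and 0.21 in Dble::R6/2 against Hdac4HET.

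Among 5 genes of peptide loading and trimming, 0 were called in R6/2 against WT and 1 in Dble::R6/2 against Hdac4HET. That gene was Erap1, which trims peptides in the endoplasmic reticulum, with a rise of 0.39 (SE 0.09, limma, adjusted p = 0.0002958), and in R6/2 against WT its rise was 0.33 (SE 0.09, adjusted p = 0.002546). Of its 2 probe sets 1 was called in R6/2 against WT, and of the 2 of Pdia3, a chaperone of the loading complex, 1 was called in Dble::R6/2 against Hdac4HET, each being the dimmer. Of 10 other class I genes, Hfe, a class I-like regulator of iron uptake, was the 1 called in either comparison, with rises of 0.44 (SE 0.09, adjusted p = 0.0001235) and 0.49 (SE 0.09, adjusted p = 2.054e-05). Without the size limit, 2 of the 10 were higher and 3 lower in R6/2 against WT, with a list median of −0.07, against 38.8% of all probe sets. In Dble::R6/2 against Hdac4HET 3 were higher and 1 lower, with a median of 0.06, against 36.8%. None of 9 regulators of class I transcription was called. Without the size limit, 5 of the 9 were higher and 0 lower in R6/2 against WT, where 38.8% of all probe sets passed. In Dble::R6/2 against Hdac4HET 4 of the 9 were higher and 0 lower, against 36.8% of all. Nlrc5, the class I transactivator, differed by 0.05 (SE 0.07, adjusted p = 0.5946) in R6/2 against WT. Of 10 genes of interferon receptors and signalling, Irf9, a subunit of the complex that binds interferon response elements, was called in R6/2 against WT, with a rise of 0.49 (SE 0.09, adjusted p = 4.209e-05), and 0 were called in Dble::R6/2 against Hdac4HET, where 1 of 3 probe sets of Jak1, a receptor kinase, was called but not its brightest.

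Of 8 MHC class II genes, which present peptides from outside the cell, H2-Ob rose by 0.53 (SE 0.12, limma, adjusted p = 0.0002997) in R6/2 against WT and H2-Aa by 0.74 (SE 0.21, adjusted p = 0.003765) in Dble::R6/2 against Hdac4HET. In R6/2 against WT, 1 of 4 probe sets of H2-Aa was called, but not its brightest. H2-Ob was also the 1 list gene called in Dble::R6/2 against R6/2, where it fell by 0.41 (adjusted p = 0.04692). That is the comparison with which the members were chosen, and the adjusted p lay close to the limit of 0.05. None of the 3 constitutive catalytic proteasome genes, and none of 4 class I receptor genes, was called in any comparison by any probe set. Without the size limit, 2 of the 3 proteasome genes were higher in R6/2 against WT, where 38.8% of all probe sets passed. In Dble::R6/2 against Hdac4HET 3 were higher, against 36.8% of all, and in Dble::R6/2 against R6/2 1 was, against 1.99%. Of the 4 receptor genes, 1 was lower in R6/2 against WT, beside the same 38.8% of all.

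Markers of other cells stood beside these results as follows, and their part in them was not tested. In R6/2 against WT, 0 of 8 microglia, 0 of 7 endothelial, 0 of 8 lymphocyte, 0 of 4 astrocyte and 0 of 5 neuron markers were called by their brightest probe set, and of 5 blood leukocyte markers Lyz2 rose by 0.54 (adjusted p = 0.0003962). Without the size limit, 4 of 8 microglia, 3 of 8 lymphocyte, 3 of 4 astrocyte and 5 of 5 neuron markers were lower and 0 higher. Of the endothelial and of the leukocyte markers, 2 each were higher and 0 lower, against 38.8% of all probe sets. In Dble::R6/2 against Hdac4HET 3 of 8 microglia and 1 of 8 lymphocyte markers were lower and 0 higher, against 36.8% of all. The mean of the microglia markers ran from 8.95 to 9.34 in R6/2 and from 9.15 to 9.35 in WT cortex, and that of the leukocyte markers from 5.95 to 6.51 in R6/2 and from 5.61 to 6.28 in WT cortex. The neuron markers ran from 12.2 to 12.4 in R6/2 and from 12.5 to 12.6 in WT cortex, without overlap, and the astrocyte markers from 9.39 to 9.56 in R6/2 and from 9.60 to 9.83 in WT cortex, also without overlap. How common a lack of overlap was over all probe sets was not counted. Counted by any probe set, 4 of 5 neuron (Rbfox3, Snap25, Syt1 and Gad1) and 2 of 4 astrocyte markers (Aqp4 and Slc1a3) were called in R6/2 against WT, and 3 of 5 (Rbfox3, Syt1 and Gad1) and the same 2 of 4 in Dble::R6/2 against Hdac4HET. In Dble::R6/2 against Hdac4HET, 8 of 10 olfactory bulb markers, Gad1 of the neuron markers and S100a8 and S100a9 of the leukocyte markers were called by their brightest probe set and lower, and in Hdac4HET against WT 7 of 10 olfactory bulb markers rose. In R6/2 against WT, Trh of the bulb markers fell by 0.75. In bulk tissue, fewer cells of a type and less RNA per cell cannot be told apart.

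Across the 37 arrays, with genotype means removed, the genes most like H2-D1 1450170_x_at by absolute Pearson correlation were Glo1 (r = 0.96), Rps2 (0.94), Mmut (0.92), Wtap (0.90), Tmem181a (0.88), Vps52 (−0.87), Enpp5 (−0.87), Rnps1 (−0.87), Tubb5 (−0.85) and Aif1 (0.85). All 10 lie on chromosome 17, with gene starts 0.09 to 29.01 Mb from that of H2-D1. Aif1 is also 1 of the 8 microglia markers. The points of each correlation share their arrays and the removal of genotype means, and the H2-D1 levels fall into separate sets of arrays rather than along a line.

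Glo1, which encodes the detoxifying enzyme glyoxalase, shows the pattern in a gene outside antigen presentation. Its lowest, median and highest level were 10.08, 10.17 and 10.88 in Dble::R6/2, 10.10, 10.92 and 11.31 in R6/2, 9.91, 10.29 and 10.96 in Hdac4HET, and 9.81, 9.91 and 11.05 in WT cortex. The ranges of all 4 genotypes overlapped. Enpp5 ran the other way, with 10.76, 11.05 and 11.13 in Dble::R6/2, 9.94, 10.32 and 11.16 in R6/2, 9.92, 10.56 and 10.90 in Hdac4HET, and 9.99, 10.91 and 11.03 in WT cortex.

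Of the probe sets of other genes with a known chromosome and an absolute r over 0.7, 76 of 77 were on chromosome 17, and of those over 0.8, 35 of 35. Of all 34715 such probe sets at any r, 4.25% lie there. The 35 stood for 30 genes, and 23 of them lay within 10 Mb of H2-D1, the farthest, of Tmem181a, being 29.01 Mb away. Of these 35, 13 had a negative r. Over 0.7 there were 42 within 10 Mb of the 572 measured there, and 34 of the 904 measured farther away on the chromosome.

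**Figure D5:**
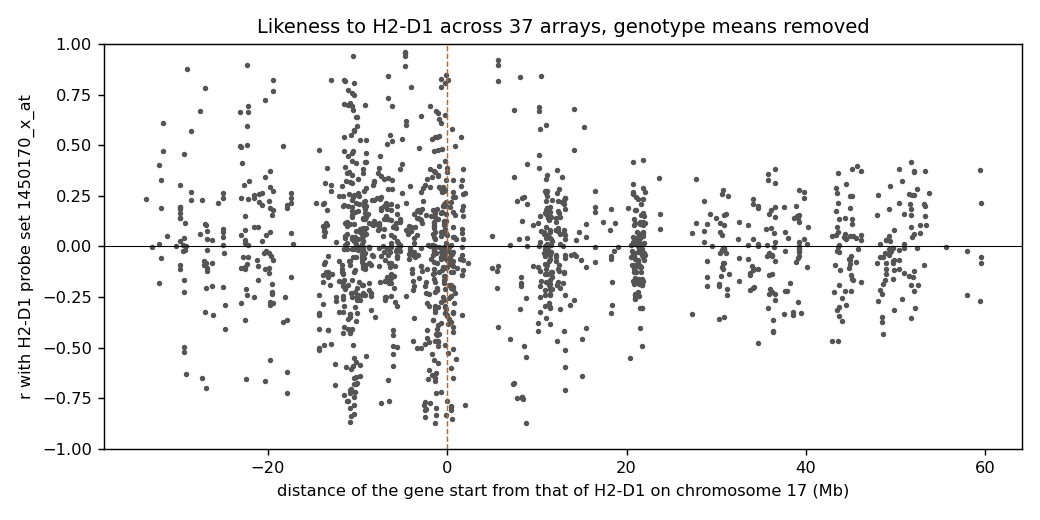
Pearson r with the H2-D1 probe set 1450170_x_at across 37 arrays, genotype means removed (vertical axis), against the distance of the gene start from that of H2-D1 on chromosome 17 in Mb (horizontal axis), 1 point per probe set. Values with an absolute r over 0.8, positive and negative, lie up to 29.01 Mb from H2-D1, beside many probe sets near 0.

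For the other members, the genes named here are those with the highest absolute r among all non-member probe sets with 1 symbol. They were picked from many and were not tested. The genes most like B2m 1449289_a_at were Psmb9 (r = 0.77), Iigp1 (0.77) and Gbp6 (0.72), an immunoproteasome subunit and a pair of interferon-inducible GTPases on chromosomes 17, 18 and 5. On Dble::R6/2 replicate 4, the highest of its group in B2m, Psmb9 stood at 7.01 and Iigp1 at 7.06, also the highest of the group. The r of B2m 1449289_a_at with H2-D1 1450170_x_at was 0.42. The genes most like H2-K1 1425336_x_at were Zfp871 (0.96), Zfp811 (0.91) and Vps52 (0.89), and those most like 1449556_at of H2-T-ps and H2-T23 were Atp6v1g2 (0.85), Mmut (−0.80) and H2-M3 (0.80), all on chromosome 17. For Tap1 they were Pfkp (0.65), Vstm4 (0.62) and Hnrnpc (0.62), for Tap2 Pigk (0.74), Ric8b (0.73) and Fam210a (0.72), and for Tapbp Arhgap29 (0.78), Vbp1 (0.74) and Col5a2 (0.73), none of them on chromosome 17.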

How the data were processed

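Expression was taken from a single matrix that the authors deposited, in log2 units, a column for each mouse. The study checked its chips with RACE and dropped those of low quality without naming them, so all 37 were used. The sources used here do not state how probes were summarised and normalised, and the values entered the tests unaltered. Probe sets were named through the platform annotation (34945 with 1 symbol, 932 with several, 9160 with none), 34737 matched a current RefSeq gene, and chromosomes and distances came from RefSeq.

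A linear model of 4 genotypes over all 37 arrays and 45037 probe sets was fitted with limma 3.58.1 in R 4.3.3 (lmFit, eBayes with a trend, two-sided tests), with Benjamini-Hochberg adjustment over all probe sets. Rose or fell means an adjusted p under 0.05, and called means also over 1.3-fold. The interaction is Dble::R6/2 minus R6/2 less Hdac4HET minus WT. Members and lists were chosen with earlier results of these data known. Every member probe set is named, with the called genes of each list (olfactory bulb markers are counted, and 1 is named), the 10 genes most like H2-D1 and the 3 most like each other member, and some list genes of known role that were chosen after their values were seen. Likeness used the H2-D1 probe set with the greatest SD. The fit was tested on simulated data. Python 3.11.15 was used for summaries and figures. Each array is 1 mouse, and the number of arrays limits the precision.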

Additional observations from a re-analysis of the deposited data

Results flagged for a closer look

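In 7 of 108 combinations of a member probe set and a genotype, 1 array stood apart from the rest of its group by a gap that was large against the range of the group, a share of 6.48%, where chance gives about 1 in 20. Of the 7, 5 were H2-D1 or H2-K1 probe sets, whose scatter between arrays was among the values that chose the members, so nothing is read from that share. Replicate 4 of Hdac4HET was the lowest of its group in H2-D1 1425545_x_at (7.24, next 8.73, a gap of 0.495 of the range) and in H2-K1 1425336_x_at (6.89, next 8.47, 0.527). Replicate 1 of WT was the highest in H2-D1 1425614_x_at (4.51, next 4.20, 0.553) and in H2-D1 1452544_x_at (6.52, next 6.06, 0.541). Among Dble::R6/2 mice, replicate 5 was the highest in H2-D1 1425614_x_at (4.43, next 4.04, 0.491) and replicate 4 in B2m 1452428_a_at (11.56, next 11.21, 0.467). Replicate 6 of Hdac4HET was the highest in Tap1 1449803_x_at (3.37, next 3.15, 0.537), a probe set near the bottom of the scale.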

How the results depend on the processing

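The 1 member probe set called in R6/2 against WT became 7 without the fold limit and otherwise stayed 1, with 0 to 2 when 1 array was left out (0 without WT replicate 8, 2 without WT replicate 6). There 1449556_at ranged from −0.50 to −0.37. The 1 called in Dble::R6/2 against Hdac4HET became 0 when only probe sets above the median level were kept, which removes 1419658_at, 6 with only the genotypes compared in the fit (5 higher, all H2-D1 or H2-K1), 2 by the methods' t test, 2 with array quality weights, 6 without the fold limit and 3 without the 6 arrays whose sex-linked genes went against the label. With 1 array left out it was 1 to 3 (3 without Hdac4HET replicate 6, 2 without Dble::R6/2 replicate 1 or 8), and 1419658_at ranged from −0.54 to −0.48. Over all probe sets these runs called 10.4%, 7.15%, 7.01%, 7.32%, 36.8% and 7.13%, in that order of alternatives, and 7.03% to 7.34% without those single arrays. The cause of these shifts was not tested beyond the filter named. The counts in Hdac4HET against WT, in Dble::R6/2 against R6/2 and in the interaction were 0 to 0 under every alternative run. No t test or fit of only 2 genotypes was made for the interaction. Over all probe sets, calls with the fold limit ranged in Hdac4HET against WT from 6 (without those 6 arrays) to 192 (without Hdac4HET replicate 2), against 131 here, in Dble::R6/2 against R6/2 from 15 (methods' t test) to 218 (without Dble::R6/2 replicate 2), against 121, and in the interaction from 0 (without the 8 arrays with raised bulb markers) to 283 (array quality weights), against 113. With the replicate block the member counts were 1 in R6/2 against WT, 1 in Dble::R6/2 against Hdac4HET and 0 in each other comparison, and Dble::R6/2 against R6/2 had 20 calls over all probe sets. Same-numbered arrays correlated at −0.27 to 0.22 over 54 pairs, and 3 of 37 arrays correlated best with their own number. By Spearman's rank correlation, 7 of the 10 genes most like H2-D1 were shared. Of the 3 most like each other member, 1 was shared for Tap1 and 2 each for H2-K1 and Tap2. All 3 were shared for B2m, for Tapbp and for 1449556_at of H2-T-ps and H2-T23. Every probe set is given, so no rule chose among those of a gene.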
